A study of Mus musculus with 16 samples.

Results

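The genes described here are the checkpoint and costimulatory ligands, the surface molecules with which a macrophage can restrain or help a T cell or a natural killer (NK) cell. They were taken from a named list, whose rule uses no measured value, but which was drawn up with earlier results of these data known. The list holds 9 ligand genes (Cd274, Pdcd1lg2, Cd80, Cd86, Vsir, Lgals9, Pvr, Nectin2 and Cd276) and Cd226, a receptor for the proteins of Pvr and Nectin2. These are 10 of the 55604 genes counted, and 9 of the 10 had enough counts to be tested.

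RNA was sequenced from tumor-associated macrophages (TAMs) of the peritoneal cavity of C57BL/6 mice carrying ID8 tumors, which come from a line of transformed mouse ovarian epithelial cells and spread in the peritoneum. The study used females of 6 to 8 weeks and took these cells 6 to 7 weeks after inoculation. After a Ficoll gradient that removed most tumor and dead cells, Tim-4+ TAMs were captured with an antibody to Tim-4 and magnetic beads, and Tim-4- TAMs were captured with F4/80 beads from the remaining cells. Each of the 4 pair numbers (793, 784, 783 and 779) gave 1 Tim-4+ and 1 Tim-4- library (n = 4 in each subset). The study's own expression table gives these numbers to the libraries in the reverse order, which leaves the pairing as it is but puts the name of each pair in doubt. The names here are those of the sample labels. All mice carried tumors and no altered gene is given for them in the labels, so both subsets share the tumor. Whether a pair number stands for 1 mouse or for pooled mice is not stated, so p-values measure the spread between these samples, which may be technical. Because these are bulk libraries, fewer cells of a type and less RNA per cell cannot be told apart.

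The libraries held 53527928 to 57768202 counts in Tim-4+ TAMs against 55618306 to 69594245 counts in Tim-4- TAMs. Levels are in CPM, the counts scaled to the size of the library after TMM scaling. The floor used here was 3 counts, which equaled 0.0431 to 0.0561 CPM on the total counts, without TMM scaling. This floor covers counting error only. Values given for 4 libraries follow the order of pairs 793, 784, 783 and 779, and gene positions are those of GENCODE M21 on GRCm38. Timd4, which encodes Tim-4, was at 524 to 1744 CPM in Tim-4+ TAMs and at 1.97 to 85.0 CPM in Tim-4- TAMs, and it was higher in the Tim-4+ library of each of the 4 pairs. The 9 general macrophage markers together were at 43760 to 56080 CPM in Tim-4+ TAMs and 21450 to 33760 CPM in Tim-4- TAMs. Most of this sum was Lyz2, at a mean of 39790 and 21180 CPM. Of the 9 genes, 5 were higher in Tim-4+ TAMs, 1 was lower (Mrc1) and 3 did not pass the test. Tumor and mesothelial markers (keratins, mesothelin, uroplakins, Wt1 and Epcam) were present in both subsets, with a summed level of 111 to 397 CPM in Tim-4+ TAMs and 444 to 2175 CPM in Tim-4- TAMs, and 9 of these 9 genes were lower in Tim-4+ TAMs.

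A T cell responds fully to antigen only with a second, costimulatory signal, which CD80 and CD86 give through CD28. The same ligands also bind CTLA-4, an inhibitory receptor that binds them more tightly than CD28 does. PD-L1 and PD-L2 bind PD-1 and restrain T cells that are already activated, and interferon gamma is a known inducer of both. On NK cells and T cells, CD226 is an activating receptor for PVR (CD155) and Nectin-2 (CD112), which the inhibitory receptor TIGIT also binds.

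Of the 9 genes tested, 4 were higher in Tim-4+ TAMs (Cd274, Cd80, Cd86 and Lgals9), 3 were lower (Nectin2, Cd276 and Cd226), and 2 did not pass the test (Vsir and Pvr). The calls are those of edgeR's quasi-likelihood test with a block for the pair, at a Benjamini-Hochberg adjusted p under 0.05 over 16861 genes. Over all of these genes, 8.97% were called higher and 8.43% lower. The median log2 fold change was 0.51 over the 9 genes and 0.00 over all genes tested. The levels of all 4 Tim-4+ libraries were above those of all 4 Tim-4- libraries for 2 of the 9, Cd274 and Lgals9, against 6.84% of all genes, and were below them for 1, Cd276, against 5.92% of all genes. These calls depended on the pairing and on which pairs were present. Without the pair block edgeR called 0 of the 9 higher and 0 lower, although 3 and 3 had an unadjusted p under 0.05, and DESeq2 with the block called 5 and 3. Without pair 784, Cd80 was the 1 gene called higher and 0 were called lower (4 and 3 at an unadjusted p under 0.05), and without pair 793 the calls were Cd80 and Cd226. Without pair 779 they were Cd274 and Cd80, higher, and Cd276 and Cd226, lower. Scaling by total counts, which put the median log2 fold change over all genes at -0.36 and brought the share of all calls that were higher from 51.6% to 13.9%, left 2 called higher (Cd274 and Cd80) and the same 3 lower.

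**Figure D1:**
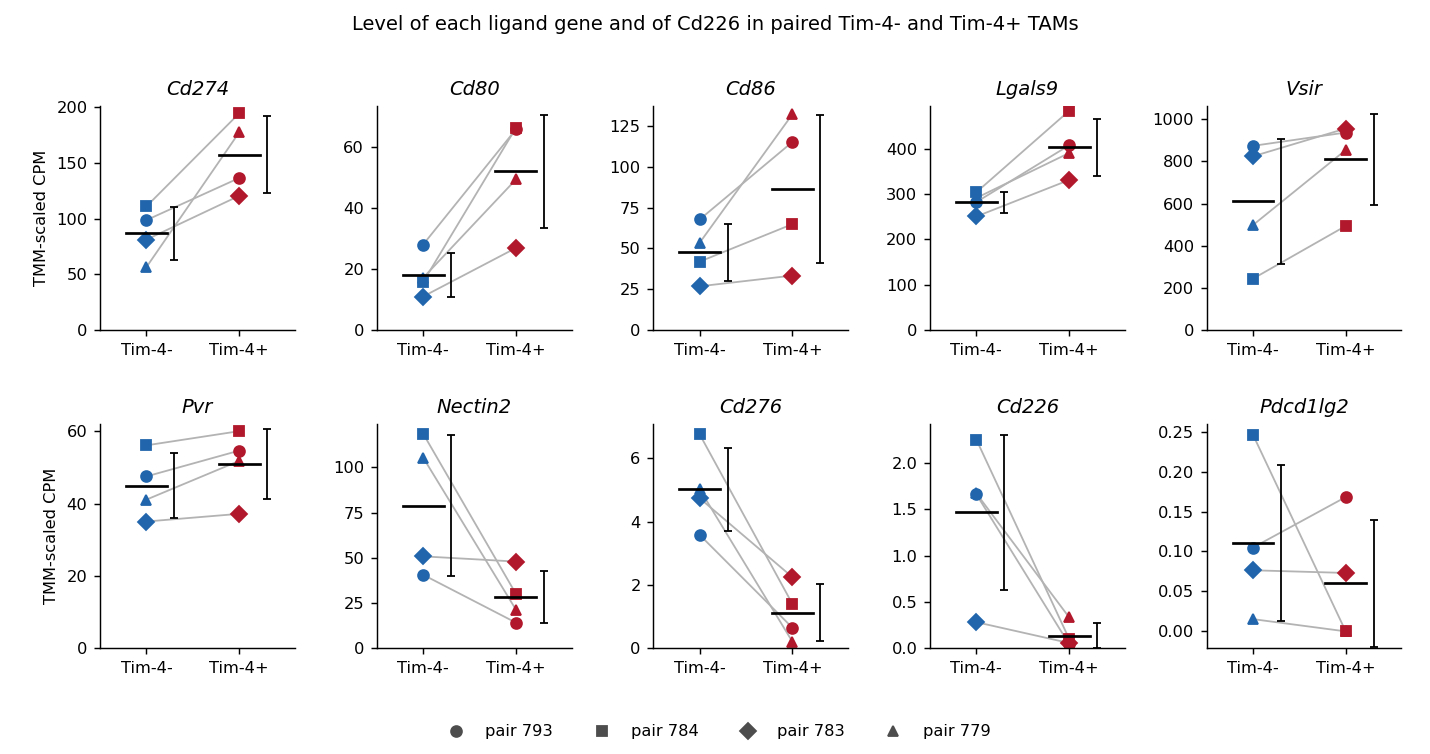
Level of each of the 10 genes in TMM-scaled CPM (y axis, linear, a scale for each gene) in the Tim-4- (blue) and Tim-4+ (red) library of each pair. Marker shape gives the pair and gray lines join a pair, black bars are means, and brackets are SDs of 4 libraries. Cd274 and Lgals9 separate the subsets without overlap, and so does Cd276 in the other direction.

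**Figure D2:**
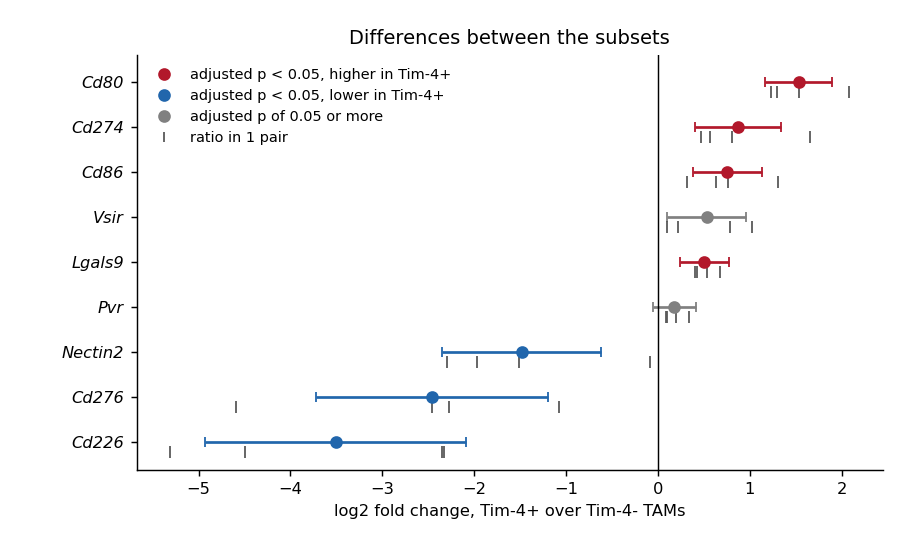
Log2 fold change of the 9 tested genes, Tim-4+ over Tim-4- TAMs (x axis), with 95% confidence intervals from the edgeR fit, and short marks under each for the 4 single pairs. Red and blue points passed an adjusted p of 0.05 and gray points did not. Cd80 lies highest at 1.53 and Cd226 lowest at -3.51, but the Tim-4- libraries alone were enough for Cd226 to pass the count filter.

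Cd274 (chr19:29367455-29388095, plus strand) encodes PD-L1, the main ligand of PD-1 on macrophages and many tumor cells. Its level was 136, 195, 120 and 177 CPM in the Tim-4+ libraries of pairs 793, 784, 783 and 779. In the Tim-4- libraries of the same pairs it was 98.6, 111, 81.1 and 56.4 CPM. All 4 Tim-4+ libraries were above all 4 Tim-4- libraries, and the difference was widest in pair 779, where the Tim-4- library was the lowest of the 8. The log2 fold change was 0.87 (SE 0.20, 95% confidence interval 0.40 to 1.34), a 1.83-fold higher level, with an edgeR adjusted p of 0.0282. When each pair was left out in turn the log2 fold change ranged from 0.62 to 1.02 and the call was kept in 2 of the 4 fits. This is a difference in RNA, and PD-L1 protein was not measured in these libraries. The paper reported PD-L1 protein at comparable levels on both subsets. Whether that was in the same mice is not stated.

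Pdcd1lg2 (chr19:29410919-29471161, plus strand) encodes PD-L2, the other ligand of PD-1, and lies 22823 bases downstream of Cd274 on chromosome 19. The Tim-4+ libraries held 8, 0, 4 and 0 counts of it and the Tim-4- libraries 7, 18, 6 and 1, in the order of pairs above. Only the Tim-4- library of pair 784 reached 10 counts, so the gene did not pass the count filter of the test. A difference between subsets was not detectable at this depth. The same libraries held 3675 to 9723 counts of Cd274. Per kb of exon, and with Pdcd1lg2 set to no less than 3 counts per library, the level of Cd274 was at least 244-fold higher in each of the 8 libraries and at least 439-fold higher in each Tim-4+ library. The log2 ratio of Cd274 to Pdcd1lg2 differed by 2.16 between the subsets, in 3 of 4 pairs upward (exact permutation test over 16 sign flips, two-sided, p = 0.25). That difference turned on the counts of 0, since adding 5 counts to both genes in place of 0.5 brought it to 1.04.

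The promoters of these neighbors, from 250 bases before to 50 bases after the gene start, are printed because the pair is so unequal in level (RefSeq, GRCm38.p6). Cd274 is at chr19:29367188-29367487 and Pdcd1lg2 at chr19:29410669-29410968, both on the plus strand, and capitals mark GGGCGG, the GC box to which Sp1 family factors bind, on either strand:
Cd274: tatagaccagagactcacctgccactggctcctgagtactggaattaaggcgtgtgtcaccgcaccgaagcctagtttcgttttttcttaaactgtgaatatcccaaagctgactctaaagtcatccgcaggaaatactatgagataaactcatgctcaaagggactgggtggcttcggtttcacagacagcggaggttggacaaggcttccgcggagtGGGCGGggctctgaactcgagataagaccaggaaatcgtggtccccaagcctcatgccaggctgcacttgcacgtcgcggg
Pdcd1lg2: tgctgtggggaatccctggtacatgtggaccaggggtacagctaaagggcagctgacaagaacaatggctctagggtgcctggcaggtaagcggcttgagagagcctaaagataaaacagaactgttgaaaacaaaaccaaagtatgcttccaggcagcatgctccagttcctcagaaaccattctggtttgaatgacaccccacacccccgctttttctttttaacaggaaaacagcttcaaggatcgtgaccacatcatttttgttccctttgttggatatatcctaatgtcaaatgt
The Cd274 window held 15 CpG dinucleotides and 1 GC box, and the Pdcd1lg2 window held 3 CpG and none of these boxes. Of 32851 RefSeq promoters of this length, 35.7% held a GC box and the median CpG number was 7. Neither window held GAAANNGAAA, a repeat of the core that interferon regulatory factors bind (3.44% of all promoters), on either strand.

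Genes that act on PD-L1 were listed beside it. Of 13 genes for interferon gamma signaling, its transcription factors and the turnover of PD-L1, edgeR called 0 higher and 2 lower in Tim-4+ TAMs, with a median log2 fold change of 0.03. At an unadjusted p under 0.05 the counts were again 0 and 2, as they were with DESeq2, and 0 and 0 were called by edgeR without the pair block, without pair 793, without pair 784 and without pair 779. Cmtm4, which with Cmtm6 protects PD-L1 from degradation, was among those lower, at 22.7 ± 7.04 CPM (SD, n = 4) in Tim-4+ and 38.1 ± 6.69 CPM in Tim-4- TAMs (log2 fold change -0.78, SE 0.15, adjusted p 0.0168). Cmtm6 itself was at 191 ± 17.0 and 215 ± 35.4 CPM and did not pass (log2 fold change -0.16, adjusted p 0.330). Irf1, a direct activator of PD-L1 transcription, was at 64.2 to 482 CPM in Tim-4+ and 73.6 to 307 CPM in Tim-4- TAMs (log2 fold change 0.03, adjusted p 0.928), a spread between pairs far wider than the difference between subsets. Ifngr1, Ifngr2, Jak1, Jak2, Stat3, Nfkb1, Rela and Spop, all at a mean of 50 CPM or more, did not pass, with log2 fold changes between -0.05 and 0.18. Of 5 tested neighbors of Cd274 and Pdcd1lg2 on chromosome 19, Ermp1 was lower in Tim-4+ TAMs (56.0 ± 23.0 against 120 ± 39.5 CPM, log2 fold change -1.10, SE 0.24, adjusted p 0.0275), and the other 4 did not pass.

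Both CD28 ligands were higher in Tim-4+ TAMs, Cd80 by 2.89-fold and Cd86 by 1.69-fold. Cd80 (chr16:38455561-38496335, plus strand) was at 65.9, 66.4, 26.9 and 49.5 CPM in the Tim-4+ libraries. In the Tim-4- libraries it was at 28.0, 15.7, 10.97 and 17.1 CPM. The Tim-4+ library was the higher in each pair, and the groups overlapped only because the Tim-4+ library of pair 783 was just under the Tim-4- library of pair 793. Cd80 had a log2 fold change of 1.53 (SE 0.16, 95% confidence interval 1.17 to 1.90), with an edgeR adjusted p of 0.00395. It was called in each of the 4 fits with a pair left out, at log2 fold changes of 1.35 to 1.64, and no other member was.

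Cd86 (chr16:36603869-36666081, minus strand) was at 115, 64.9, 33.3 and 132 CPM in the Tim-4+ libraries and at 67.8, 41.9, 26.8 and 53.5 CPM in the Tim-4- libraries. It was higher in the Tim-4+ library of each pair, but levels differed more between pairs than between subsets, and pair 783 was the lowest in both. The log2 fold change was 0.76 (SE 0.16, 95% confidence interval 0.38 to 1.13), with an edgeR adjusted p of 0.0210. The call held in 1 of the 4 fits with a pair left out, that without pair 783.

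Since CD80 and CD86 share their receptors, their ratio within a library was compared as well, which needs no scaling between libraries. There were, with no correction for gene length, 0.649 counts of Cd80 for each count of Cd86 in Tim-4+ TAMs, against 0.378 in Tim-4- TAMs (geometric means). The log2 ratio was higher in the Tim-4+ library by 0.47, 1.45, 0.98 and 0.22 in pairs 793, 784, 783 and 779, a mean of 0.78 ± 0.54 (SD, n = 4 pairs). All 4 pairs had the same direction, which gives the smallest p that 16 sign flips allow, 0.13 (exact permutation test, two-sided), or 0.188 adjusted over the 3 ligand ratios compared, so this design could not pass 0.05. The widest difference was in pair 784, where the ratio of counts was 1.02 in the Tim-4+ and 0.376 in the Tim-4- library.

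The Cd80 promoter is shown as that of the ligand with the most stable call (RefSeq, GRCm38.p6, chr16:38458683-38458982, plus strand):
Cd80: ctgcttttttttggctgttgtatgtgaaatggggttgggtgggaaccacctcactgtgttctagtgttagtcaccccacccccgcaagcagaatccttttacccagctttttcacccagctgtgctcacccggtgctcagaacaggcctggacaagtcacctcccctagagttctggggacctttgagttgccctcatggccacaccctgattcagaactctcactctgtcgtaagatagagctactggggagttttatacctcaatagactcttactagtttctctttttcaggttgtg
It held 3 CpG dinucleotides, a GC content of 49.7% against a median of 52.7% over all promoters, and neither of the motifs named here. The window follows the RefSeq start and lies inside the gene as GENCODE M21 places it, from 38455561. It therefore does not describe the bases around the GENCODE start. RefSeq promoters were at hand for 7 of the 10 genes, and those of Cd86, Pvr and Cd226 are not shown.

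**Figure D3:**
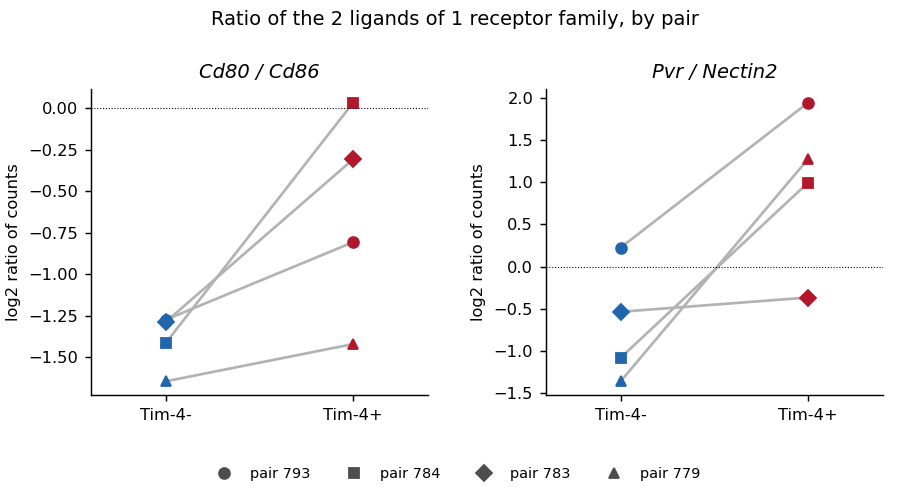
Log2 ratio of counts (y axis) of Cd80 to Cd86 (left) and of Pvr to Nectin2 (right) in the Tim-4- (blue) and Tim-4+ (red) library of each pair, joined by gray lines, with the dotted line at equal counts. Both ratios are higher in the Tim-4+ library of 4 of 4 pairs, by 0.22 to 1.45 on the left and by 0.17 to 2.63 on the right.

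Lgals9 (chr11:78962974-78984946, minus strand) encodes galectin-9, a soluble and surface lectin for which TIM-3 is a proposed receptor. It was at 408, 484, 331 and 391 CPM in the Tim-4+ libraries and at 282, 304, 250 and 291 CPM in the Tim-4- libraries. The groups did not overlap, and the Tim-4- libraries lay close together. Its log2 fold change was 0.51 (SE 0.12, 95% confidence interval 0.24 to 0.78), a 1.42-fold difference, with an edgeR adjusted p of 0.0255. The call held in 1 of the 4 fits with a pair left out (adjusted p 0.0414 to 0.112), and with total-count scaling the log2 fold change was 0.15, while that of the median gene was -0.36.

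Lgals9 was the 1 member whose promoter held this repeat of the interferon regulatory factor core, in 2 places (RefSeq, GRCm38.p6, chr11:78984875-78985174, minus strand, printed in the direction of the gene with GAAANNGAAA in capitals, here on the opposite strand):
Lgals9: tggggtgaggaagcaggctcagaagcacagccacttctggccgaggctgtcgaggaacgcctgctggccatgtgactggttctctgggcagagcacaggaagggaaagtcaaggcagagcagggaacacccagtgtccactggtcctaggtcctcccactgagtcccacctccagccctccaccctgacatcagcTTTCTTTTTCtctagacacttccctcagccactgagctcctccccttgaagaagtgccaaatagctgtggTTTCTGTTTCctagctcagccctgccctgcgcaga
The window held 4 CpG dinucleotides and a GC content of 58.0%. Of all RefSeq promoters 3.44% held this motif, and a match of letters does not show that a factor binds.

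Vsir (chr10:60346851-60372684, plus strand) encodes VISTA, an inhibitory B7 family ligand that is abundant on myeloid cells, and the test did not call it. Its level was 938, 494, 957 and 855 CPM in the Tim-4+ libraries and 874, 243, 825 and 498 CPM in the Tim-4- libraries. It was higher in the Tim-4+ library of each pair, though by only 1.07-fold in pair 793 against 2.03-fold in pair 784, and pair 784 was the lowest in both subsets. The log2 fold change of 0.53 (SE 0.19, 95% confidence interval 0.10 to 0.96) was of the same size as that of Lgals9 and missed the threshold (edgeR adjusted p 0.0878). DESeq2 with the pair block called it, with an adjusted p of 0.0309, and edgeR without a filter on low counts gave 0.0459. These were the 2 of 13 alternatives that called it. With a pair left out edgeR called it in 0 of 4 fits (adjusted p 0.0628 to 0.305). With total-count scaling the log2 fold change was 0.17 (adjusted p 0.367).

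Of the ligands of CD226 and TIGIT, Nectin2 was lower in Tim-4+ TAMs and Pvr did not pass the test. Pvr (chr7:19903578-19921160, minus strand) was at 54.6, 60.0, 37.2 and 51.8 CPM in the Tim-4+ libraries and at 47.5, 56.1, 35.1 and 41.1 CPM in the Tim-4- libraries. The differences between pairs were larger than those between subsets, and the log2 fold change was 0.18 (SE 0.10, 95% confidence interval -0.05 to 0.41), with an edgeR adjusted p of 0.25. With total-count scaling the sign turned, to -0.18 (adjusted p 0.208).

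Nectin2 (chr7:19716644-19750483, minus strand) lies 153094 bases from Pvr. It was at 14.2, 30.2, 47.9 and 21.5 CPM in the Tim-4+ libraries and at 40.7, 119, 50.8 and 105 CPM in the Tim-4- libraries. The pairs 793, 784 and 779 showed 2.85-, 3.93- and 4.91-fold lower levels in Tim-4+ TAMs, whereas pair 783 showed 1.06-fold, and the groups overlapped. In the fit the log2 fold change was -1.48 (SE 0.36, 95% confidence interval -2.35 to -0.62), with an edgeR adjusted p of 0.0378. Leaving out pair 783 gave -1.93 and an adjusted p of 3.77e-05, while leaving out any of the other pairs lost the call (adjusted p up to 0.148), as did testing without a count filter (adjusted p 0.253).

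The Nectin2 promoter is given beside those of the ligands that were higher (RefSeq, GRCm38.p6, chr7:19749524-19749823, minus strand, in the direction of the gene, GC boxes in capitals):
Nectin2: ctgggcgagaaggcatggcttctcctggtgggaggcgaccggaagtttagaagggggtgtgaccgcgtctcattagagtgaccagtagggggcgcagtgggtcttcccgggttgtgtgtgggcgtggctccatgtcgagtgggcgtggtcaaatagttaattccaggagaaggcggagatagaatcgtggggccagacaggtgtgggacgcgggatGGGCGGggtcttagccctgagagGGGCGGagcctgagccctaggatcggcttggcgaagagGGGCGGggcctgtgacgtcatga
It held 20 CpG dinucleotides, 3 GC boxes and a GC content of 62.7%. The Cd276 promoter, of the other ligand that was lower, held 39 CpG, 4 GC boxes and a GC content of 78.3%, higher than that of 98.2% of all promoters. The windows of Cd274, Cd80 and Lgals9, whose genes were higher, held 15, 3 and 4 CpG. That of Vsir, not called but higher in the Tim-4+ library of each pair, held 15 CpG, 3 GC boxes and a GC content of 63.7%. The windows of Nectin2 and Cd276, like that of Cd80, follow RefSeq starts that lie inside the gene as GENCODE M21 places it. With so few genes this comparison of promoters is a description and not a test.

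The balance of the CD226 ligands can be read within each library. There were, again not corrected for length, 1.94 counts of Pvr for each count of Nectin2 in Tim-4+ TAMs, against 0.621 in Tim-4- TAMs (geometric means). The log2 ratio was higher in the Tim-4+ library by 1.71, 2.07, 0.17 and 2.63 in pairs 793, 784, 783 and 779, a mean of 1.65 ± 1.05 (SD, n = 4 pairs). Again 4 of 4 pairs had the same direction, with the smallest possible p of 0.13 (exact permutation test over 16 sign flips, two-sided, 0.188 adjusted over the 3 ratios). Pair 783 set the low end, with ratios of 0.775 and 0.690, and without it the mean difference was 2.14.

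Cd276 (chr9:58524298-58555437, minus strand) encodes B7-H3, a B7 family ligand often found on tumor and stromal cells. The Tim-4+ libraries held 31, 70, 123 and 10 counts of it and the Tim-4- libraries 239, 494, 372 and 327, or 0.208 to 2.25 CPM against 3.58 to 6.75 CPM. The groups did not overlap, and the Tim-4- libraries were 2.11- to 24.1-fold higher than the Tim-4+ libraries of their pairs, least in pair 783. For Cd276 the log2 fold change was -2.46 (SE 0.53, 95% confidence interval -3.72 to -1.20), with an edgeR adjusted p of 0.0251. The direction was kept with each pair left out, from -2.97 to -1.92, and the call in 2 of the 4 fits.

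Tumor and mesothelial markers were lower in Tim-4+ TAMs as well. Their sum was 111, 202, 397 and 239 CPM in the Tim-4+ libraries and 444, 1387, 899 and 2175 CPM in the Tim-4- libraries of pairs 793, 784, 783 and 779. The mean sum was 5.17-fold higher in Tim-4- TAMs, beside a fitted difference of 2.79-fold for Nectin2 and 5.50-fold for Cd276. In pair 783, where Nectin2 and Cd276 differed least, the markers also differed least, by 2.27-fold, and in pair 779, where both differed most, the markers differed most, by 9.09-fold. The pairs between did not keep that order for Cd276, since the markers differed by 4.01-fold and Cd276 by 5.50-fold in pair 793, against 6.88-fold and 4.82-fold in pair 784. The Tim-4+ library of pair 779 had the least Cd276 of the 8 but not the lowest marker sum. The part of these cells in the levels of Nectin2 and Cd276 was not tested.

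**Figure D4:**
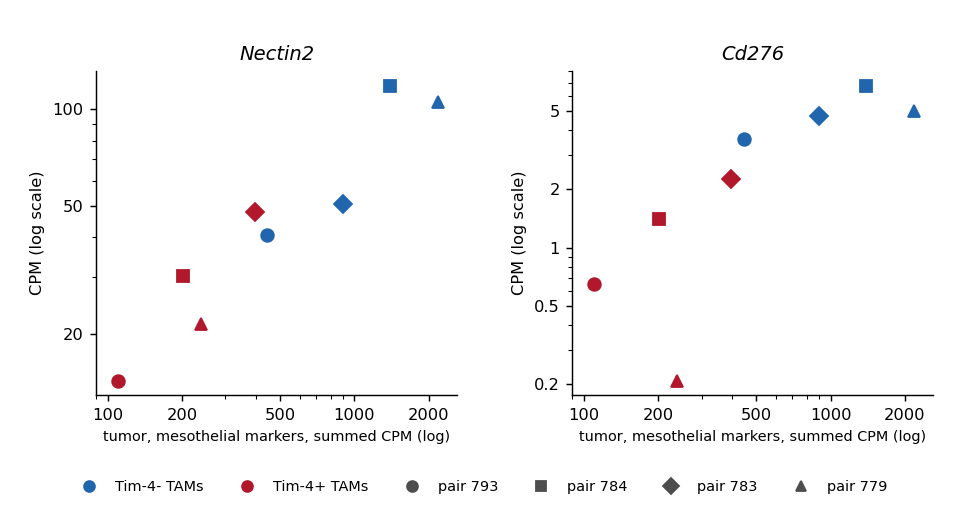
Level of Nectin2 (left) and Cd276 (right) in CPM (y axis, log scale) against the summed CPM of 9 tumor and mesothelial markers (x axis, log scale) in the 8 libraries, blue for Tim-4- and red for Tim-4+, with 1 marker shape for each pair. The 2 libraries with the highest marker sums, Tim-4- of pairs 784 and 779, are also the 2 with the most Nectin2.

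Cd226, the receptor, is found on NK cells and T cells and, among macrophages of the body cavities, marks those that express MHC class II. The Tim-4+ libraries held 2, 5, 3 and 16 counts of it and the Tim-4- libraries 111, 165, 22 and 109. The Tim-4- library held more in every pair, but the groups overlapped, since the Tim-4- library of pair 783 was at 0.280 CPM and the Tim-4+ library of pair 779 at 0.333 CPM. The log2 fold change was -3.51 (SE 0.61, 95% confidence interval -4.93 to -2.09), with an edgeR adjusted p of 0.0122, and the call held in 3 of the 4 fits with a pair left out (adjusted p 0.0847 without pair 784). The gene reached 10 counts in 5 libraries, the 4 Tim-4- libraries and 1 Tim-4+ library. The Tim-4- libraries alone were enough to pass the filter, so its test rests on the subset where the gene is high. The paper also names Cd226 among its top genes lower in Tim-4+ TAMs in this RNA-Seq, so the call is no separate evidence. The level was low in both subsets, at 0.132 ± 0.136 CPM in Tim-4+ against 1.47 ± 0.839 CPM in Tim-4- TAMs (SD, n = 4).

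Markers of other cells that carry CD226 were also measured. The 7 NK markers summed to 0.252 to 1.21 CPM in Tim-4+ and 1.27 to 1.996 CPM in Tim-4- TAMs. The mean NK sum was 0.776 CPM in Tim-4+ and 1.54 CPM in Tim-4- TAMs, beside 0.132 and 1.47 CPM for Cd226. Most of the NK sum was Klrk1, with 9 to 47 counts in Tim-4+ and 69 to 95 in Tim-4- libraries. Ncr1, the NKp46 gene, had no more than 3 counts in any library, and neither of the 2 NK markers tested passed. The 10 T cell markers summed to 2.08 to 4.22 CPM and 6.31 to 13.3 CPM. Of 5 tested, Cd4 was lower in Tim-4+ TAMs (0.813 against 4.80 CPM, adjusted p 0.00599) and carried more of the Tim-4- sum than any other, and the other 4 did not pass. Among the T cell receptor genes, Cd3e was at 0.0783 and 0.121 CPM, Cd3g at 0.0193 and 0.206 CPM and Trac at 0.376 and 0.867 CPM on average. The mast cell genes Cpa3, Tpsb2 and Cma1 together were at 0.260 to 1.31 CPM in Tim-4+ TAMs and at 11.2, 10.4, 0.319 and 21.9 CPM in the Tim-4- libraries of pairs 793, 784, 783 and 779. The Tim-4- library of pair 783 was the lowest of the Tim-4- libraries for both the mast cell genes and Cd226. The list of monocyte-derived, MHC class II macrophage genes summed to 1064 to 7240 CPM in Tim-4+ and 4749 to 15440 CPM in Tim-4- TAMs, with 7 of its 8 genes lower in Tim-4+ TAMs. The part of each of these cell types in the Cd226 level was not tested.

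Markers of other antigen-presenting cells were measured beside the ligands that were higher. The 9 dendritic cell markers summed to 14.1 to 33.2 CPM in Tim-4+ and 12.3 to 19.7 CPM in Tim-4- TAMs, with 1 called higher (Cd209a) and 1 lower (Zbtb46), and Flt3 was at about 1 CPM or less on average (1.08 and 0.637 CPM). The 7 B cell markers summed to 5.48 to 15.6 CPM and 10.7 to 18.1 CPM. Their part in the levels of Cd80, Cd86, Cd274 and Lgals9 was not tested.

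To set the genes beside each other, CPM was divided by the length of all annotated exons of the gene in kb. On this scale Lgals9 and Vsir led in both subsets, at 189 ± 29.4 and 162 ± 43.0 CPM per kb in Tim-4+ TAMs and 132 ± 10.7 and 122 ± 59.0 CPM per kb in Tim-4- TAMs (SD over 4 libraries), and their ranges overlapped. Cd274 followed at 43.4 ± 9.55 and 23.9 ± 6.53 CPM per kb, clear of Vsir in both subsets. In Tim-4+ TAMs the order then was Cd86 (23.6), Cd80 (14.1), Pvr (8.32) and Nectin2 (8.15), with each range overlapping the next from Cd274 down to Nectin2. In Tim-4- TAMs Nectin2 (22.6 ± 11.1 CPM per kb) stood next to Cd274 with an overlapping range, and was followed by Cd86 (12.97), Pvr (7.34) and Cd80 (4.85). Cd276, at 0.308 and 1.37 CPM per kb, was below the range of those genes in both subsets, and Pdcd1lg2 and Cd226 were the lowest.

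The 9 ligands together were at 448 ± 28.9 CPM per kb in Tim-4+ TAMs and 327 ± 41.8 CPM per kb in Tim-4- TAMs. Of this sum, Lgals9 and Vsir made up 42.2% ± 6.84 and 36.1% ± 9.72 in Tim-4+ TAMs, against 41.0% ± 7.64 and 36.0% ± 14.5 in Tim-4- TAMs. Cd80 made up 1.47% ± 0.455 in Tim-4- and 3.12% ± 1.06 in Tim-4+ TAMs, and Nectin2 7.30% ± 4.29 and 1.87% ± 1.07 (SD, n = 4). The share of Cd274 was 7.43% ± 2.46 and 9.70% ± 2.17, a gap about as wide as the SDs. These shares carry no test.

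**Figure D5:**
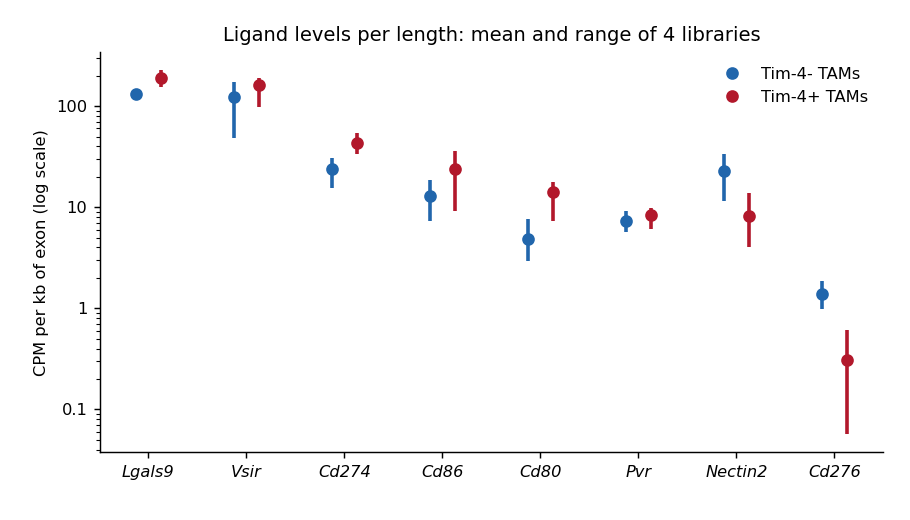
Level of 8 ligand genes in CPM per kb of exon (y axis, log scale), as the mean (point) and range (line) of 4 libraries, blue for Tim-4- and red for Tim-4+ TAMs. Nectin2 is level with Cd274 in Tim-4- TAMs and with Pvr in Tim-4+ TAMs.

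Correlations of log2 CPM over the 8 libraries are given as descriptions, since the libraries share 4 pairs and 2 subsets. Among the members, Cd80 and Lgals9 had the highest Pearson r, 0.92, followed by Nectin2 and Cd276 with 0.85 and Cd274 and Lgals9 with 0.84. Cd80 was inverse to Nectin2 (r = -0.82) and to Cd276 (r = -0.80), and Vsir had r between -0.68 and 0.30 with every other tested member. Each called member was compared with 8769 or 8770 genes that averaged 10 CPM or more. Taking the highest r of so many over 8 libraries selects for high values, so the genes named are no evidence of a specific link. The 3 most like Cd274 were Ptprj (0.99), 1810030O07Rik (0.98) and Igsf6 (0.98). Those most like Cd80 were Vmn2r26 (0.99), Pi16 (0.98) and Cd14 (0.98). Those of Cd86 were Tra2a, Trim25 and Trp53bp2 (0.97 to 0.99) and those of Lgals9 were Iscu, Nsfl1c and Mcu (0.97 to 0.98). The genes most like Nectin2 were Atp1b1 (0.995), Cnn3 (0.99) and Ptpn13 (0.99), those of Cd276 were Pex26, Endod1 and Hacd3 (0.98), and those of Cd226 were Zbtb40, Sfxn2 and Traf2 (0.93 to 0.94).

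Beyond the members, 64 genes of the surrounding pathways were listed, of which 50 were tested. In Tim-4+ TAMs 9 of these were higher and 7 lower, beside 8.97% and 8.43% of all genes, and the median log2 fold change was 0.09. Without pair 784 the calls were 1 higher and 0 lower, without pair 779 they were 3 and 3, and without the pair block 1 and 0. The list of 12 other ligands (B7 and butyrophilin family genes, Nectin1, Nectin3, Cd48, Cd200 and Fgl1) held mostly scarce genes, with 5 tested and 0 called by edgeR in either direction (0 higher and 1 lower at an unadjusted p under 0.05, and the same with DESeq2). The most abundant of them, Cd48, the ligand of CD244, was at 105 ± 7.04 and 92.7 ± 20.02 CPM (log2 fold change 0.20, adjusted p 0.270). Of 11 genes of the TNF costimulatory family, 8 were tested and 1 was called, Tnfsf14 (LIGHT), at 2.71 ± 1.14 CPM in Tim-4+ and 1.05 ± 0.861 CPM in Tim-4- TAMs (log2 fold change 1.57, SE 0.39, adjusted p 0.0320). Cd40, the receptor through which T cells raise B7 ligands on antigen-presenting cells, did not pass (63.9 ± 9.98 and 54.3 ± 13.1 CPM, log2 fold change 0.26, adjusted p 0.208).

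Of the listed receptors and checkpoint molecules of myeloid cells, not all of them inhibitory, 16 were tested. In Tim-4+ TAMs 5 were higher and 3 lower, beside 8.97% and 8.43% of all genes. The counts were 1 and 0 both without the pair block and without pair 784, and 5 and 6 with total counts. Vsig4, which encodes CRIg, a complement receptor of resident macrophages that also restrains T cells, was at 915 ± 47.5 CPM in Tim-4+ and 118 ± 46.5 CPM in Tim-4- TAMs (log2 fold change 3.04, SE 0.23, adjusted p 0.00255). It also stands in the list of resident macrophage genes, of which 8 of 9 were higher. Pirb, an inhibitory receptor for MHC class I, was at 708 ± 155 and 350 ± 80.8 CPM (log2 fold change 1.02, adjusted p 0.0130), and its reads are uncertain because near-identical Pira genes lie beside it. Ceacam1 (0.91), Cd200r1 (1.08) and Pilra (0.65) were also higher on the log2 scale.

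Those lower were Havcr2, which encodes TIM-3 (log2 fold change -0.92, SE 0.19, adjusted p 0.0185), Sirpb1a (-1.81) and Clec12a (-0.42). Havcr2 was at 20.8 ± 21.6 CPM in Tim-4+ and 32.0 ± 19.8 CPM in Tim-4- TAMs, lower in the Tim-4+ library of 4 of 4 pairs, so the gene of this proposed galectin-9 receptor and Lgals9 had opposite signs. Sirpa and Cd47, the receptor and the ligand of the signal that restrains phagocytosis, did not pass (log2 fold changes 0.28 and 0.03, adjusted p 0.301 and 0.888), nor did Lilrb4a (0.43, adjusted p 0.126), Cd300a (0.69, adjusted p 0.0840) and Lair1 (-0.35, adjusted p 0.0559).

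Of 11 receptors that are best known from lymphocytes, 8 were tested, with 3 higher and 2 lower, beside the same shares of all genes. The counts were 0 and 0 both without the pair block and without pair 784 (3 and 2 at an unadjusted p under 0.05 in each), 0 and 2 without pair 779, and 3 and 2 with DESeq2. Cd244a, the receptor of CD48, was the most abundant, at 139 ± 25.6 and 89.7 ± 20.2 CPM without overlap (log2 fold change 0.65, SE 0.15, adjusted p 0.0291). Pvrig, an inhibitory receptor for Nectin-2, was at 6.96 ± 1.19 and 3.36 ± 1.75 CPM, again without overlap (log2 fold change 1.18, SE 0.28, adjusted p 0.0291), and Icos was at 2.73 ± 1.49 and 0.907 ± 0.307 CPM (log2 fold change 1.49, SE 0.29, adjusted p 0.0156). Pdcd1, which encodes PD-1, and Lag3 were lower and scarce. Pdcd1 had 0 to 5 counts in the Tim-4+ and 34 to 77 counts in the Tim-4- libraries (adjusted p 0.0137), so it passed the count filter through the Tim-4- libraries alone and no fold is given. Lag3 was at 0.0841 to 0.895 and 1.68 to 3.01 CPM (log2 fold change -2.42, SE 0.47, adjusted p 0.0158). The T cell markers are given above, and their part in these levels was not tested.

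On the other strand, Gm20512 overlaps 3.86% of the exon bases of Nectin2 and had 0 to 10 counts, Gm10657 overlaps 11.4% of those of Cd276 and had 0 to 1 counts, and AC119228.1 overlaps 14.1% of those of Cd274. Whether counting used strand is not stated, so reads over these bases cannot be assigned to 1 of the genes.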

How the data were processed

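RNA-Seq was done on 8 libraries, a Tim-4+ and a Tim-4- library in each of 4 pairs, in 2 lanes each. For every lane the authors deposited the raw count of reads on each gene, not normalized. The submitters' processing notes name TopHat2 2.0.13, Cufflinks, Cuffdiff 2.2.1, GRCm38 and mm10, and the counting program is not given in the sources used here. Reads that fit several places are set apart in the files, which lowers genes with near-identical copies.

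Lanes were summed. One lane (Tim-4-, pair 793) is listed by symbol and was joined by row order, where 96.8% of comparable symbols and all 10 members matched. Identifiers were matched to GENCODE M21 (98.6% found). Genes that reached 10 counts in 4 or more libraries were tested with edgeR 4.0.16 (TMM, robust quasi-likelihood, pair block, Benjamini-Hochberg over 16861 genes) in R 4.3.3. The SE is the log2 fold change over the square root of F. The pairing comes from the label numbers, and deviations from the subset means correlated within pairs (r = 0.28 to 0.50). Between other numbers r was at most 0.07, but taking out the subset means itself lowers these values, so they are no separate evidence. CPM is TMM-scaled. Ratios used counts plus 0.5.

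The members and lists were chosen with earlier results of these data known. Named genes are the members, pathway genes called or averaging 50 CPM or more, and the 3 genes most correlated with each called member. Alternatives were no pair block, other scalings, other count filters, DESeq2 1.42.0, lane 2 only, a join by symbol, each pair left out, a larger pseudocount and, added after the data were seen, that lane left out. In simulated counts for this comparison, 69% of 200 genes with a log2 change of 1.5 were recovered with 5.48% of calls false, and 50% of 200 with a change of 1, with 11.5% of calls false. With 0 genes changed, 0 were called. Each setting was drawn once. The changed genes were 200 of 16861, beside 1512 called higher and 1421 lower in the data, so these rates may not carry over. 1 gene of the lists is counted but not reported here.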

Additional observations from a re-analysis of the deposited data

How the results depend on the processing

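The 9 tested members kept their direction under each alternative they could be tested in, except Pvr, whose log2 fold change was -0.18 with total counts. Without the pair block, 0 members were called higher and 0 lower, 1 and 0 of the pathway genes, and 147 and 85 of all genes. With total counts, 2 members were called higher, 18 pathway genes were lower, and 789 of all genes were higher and 4906 lower. DESeq2 called 2328 of all genes lower. With each pair left out, the members called ranged from 1 to 4 higher and from 0 to 3 lower, the pathway genes from 1 to 12 and from 0 to 8, and all genes from 91 to 1608 and from 67 to 1975. Each of these fits holds 3 pairs, and the calls depended on which pair was left out. Of all genes, 1608 were higher and 1975 lower without pair 783, against 91 and 67 without pair 784. The cause was not tested. Leaving out the symbol-listed lane, an alternative chosen after seeing the data, kept the same 4 and 3 members called. The ligand ratios kept their direction in the 7 alternatives run for each, and the 4 pairs could not bring them under an adjusted p of 0.05. Pdcd1lg2, with 0 to 18 counts in a library, could be tested only by edgeR without a count filter (log2 fold change -1.17, adjusted p 0.776).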
